A study of Mus musculus with 2 samples.

Results

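The histone deacetylase genes of classes I and II, *Hdac1* to *Hdac10*, were followed in RNA of DP thymocytes, which carry both CD4 and CD8, with 1 library of WT and 1 of Cxxc1-deficient cells, called the deficient library. The members were taken by symbol, and all 10 are among the 21041 genes for which a value was deposited. Class I holds 4 of them (*Hdac1*, *Hdac2*, *Hdac3* and *Hdac8*) and class II holds 6, of which *Hdac4*, *Hdac5*, *Hdac7* and *Hdac9* form class IIa and *Hdac6* and *Hdac10* form class IIb. *Cxxc1* is a subunit of the SETD1 complex, which trimethylates H3K4, and the comparison asks how the RNA of these genes differs where *Cxxc1* is missing. By the study's methods, WT mice carried the floxed *Cxxc1* alleles (*Cxxc1* fl/fl) without Cre, and deficient mice were *Cxxc1* fl/fl with Cre under the human CD2 promoter (hCD2-Cre), which is active in T-lineage and other immune cells and removes exons 4 and 5. The floxed allele was made in ES cells of strain 129 and then backcrossed onto C57BL/6, and mice were 3 to 4 weeks old unless specified otherwise. The genotype label of the deficient library reads *Cxxc1*+/-, whereas its title says KO. How many mice gave each library is not given in the sources used here.

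Histone deacetylases remove acetyl groups from lysines, on histones and on other proteins. HDAC1 and HDAC2 are closely related catalytic subunits of the SIN3, NuRD and CoREST corepressor complexes, HDAC3 works within the NCoR and SMRT complexes, and HDAC8 acts outside these complexes. Class IIa proteins have little catalytic activity of their own; they bind MEF2 transcription factors and leave the nucleus when kinases phosphorylate them and 14-3-3 proteins bind. In thymocytes HDAC7 is known to repress *Nr4a1* until the TCR is engaged, and class I deacetylases are known to be needed for thymocytes to develop.

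Because each genotype has 1 library, the differences have no replicate check and were not tested. Values are normalized expression values without a stated unit, and they were taken to be scaled to transcript length. In the WT library 1 read was worth approximately 4.05 units of value times kb and in the deficient library 4.70, estimated from short genes, of which 19 of 50 and 17 of 50 gave whole reads, so the libraries held approximately 1404701 and 725066 reads on genes. Intervals of 95% (exact Poisson for a value, Clopper-Pearson for a ratio) come from these approximate reads, hold only for counting error, and they set library against library, not genotype against genotype. *Cxxc1* itself stood at 91 in WT and 50 in the deficient library. The deposited value is 1 per gene and does not separate the deleted exons from the others, and what the remaining value comes from was not tested. By qPCR, the paper found hardly any *Cxxc1* mRNA in deficient DP cells. All 9 markers of DP thymocytes (*Cd4*, *Cd8a*, *Cd8b1*, *Cd3e*, *Rag1*, *Rag2*, *Dntt*, *Themis* and *Arpp21*) were present, from 1219 (*Rag2*) to 20778 (*Rag1*) in WT and from 172 (*Dntt*) to 5058 (*Rag1*) in the deficient library, and all 9 were lower in the latter. Summed markers of B cells (5 genes) were 162 and 120 in WT and Cxxc1-deficient cells, of erythroid cells (5 genes) 104 and 129, of macrophages and dendritic cells (5 genes) 205 and 212, and of thymic epithelium and stroma (5 genes) 108 and 109, with *Hba-a1* listed at 0 in both libraries. Olfactory receptor genes, taken below as genes not thought to be used by these cells, reached 81 in WT and 95 in the deficient library. Of these markers only *Itgam*, of the macrophage and dendritic cell list, was above that, at 101 and 107. Whether other cells were present was not tested. All 5 Y-linked genes looked at (*Ddx3y*, *Eif2s3y*, *Kdm5d*, *Usp9y* and *Uty*) were at 0 in WT and between 9 and 67 in the deficient library, while *Xist*, the RNA of the inactive X chromosome, had 2419 and 1021. Values of Y-linked genes were thus found beside *Xist* in the deficient library alone. They lie within the range of the olfactory receptor genes there, and whether they come from transcripts was not tested. The sex of the mice and the genotype cannot be told apart. Fewer cells with a transcript and less RNA per cell cannot be told apart either.

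*Hdac1* has near copies in the genome, and its sequence is shown because the authors kept only reads with a unique place. Of the 1352 windows of 50 bases, the length of a read, that lie inside the exons of the longest *Hdac1* transcript, 1200 (88.8%) had a second place in mm9 with at most 2 mismatches, and 152 (11.2%) had none. The most such places were on chromosome 17, where *Gm10093*, named Hdac1-ps and classed as a pseudogene by RefSeq, lies at chr17:78890905-78892881 on the plus strand. Stretches of *Hdac1* are shown with their counterparts there, read 5′ to 3′ along the transcript in mm9, with capitals where the bases differ. A coding stretch of 50 bases (chr4:129195047-129195096, minus strand, against chr17:78892081-78892130, plus strand) differs by C11A, with positions counted from 1 at the 5′ end and the *Hdac1* base given first.
Hdac1: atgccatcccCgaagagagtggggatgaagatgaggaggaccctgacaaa
Gm10093: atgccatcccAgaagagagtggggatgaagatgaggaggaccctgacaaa
Of the coding windows that aligned to this copy without gaps, the one with the most differences (chr4:129200211-129200260, against chr17:78891362-78891411) has 5 of them, T1A, A20G, C25T, C32T and T42C. It is shown as the aligned stretch in which the loci are easiest to tell apart.
Hdac1: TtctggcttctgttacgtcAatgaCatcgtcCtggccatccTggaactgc
Gm10093: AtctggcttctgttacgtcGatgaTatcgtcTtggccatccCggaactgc
For *Hdac6* 34 windows (0.913%) and for *Hdac9* 35 windows (0.757%) had a second place, and for the other 7 genes 0 windows did. The value of *Hdac1* is therefore not comparable with the levels of the other 9 genes, and its place in any order of levels is uncertain. Reads across exon junctions are not in this count, and what part the copies have in the value was not tested.

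*Hdac7* and *Hdac2* led the family in both libraries. *Hdac7*, the class IIa gene known for its high expression in DP thymocytes, had a value of 634 in WT (interval from 587 to 685) and 219 in the deficient library (189 to 252). *Hdac2* had 389 in WT (347 to 435) and 89 in the deficient library (68.7 to 115). Together they made up 71.7% of the summed values of the 10 genes in WT and 49.6% in the deficient library, while the sum of the other 8 was 403 and 313. *Hdac7* lies on the minus strand of chromosome 15 (97623095 to 97674933 in mm9), and *Hdac2* on the plus strand of chromosome 10 (36694350 to 36721695).

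**Figure D1:**
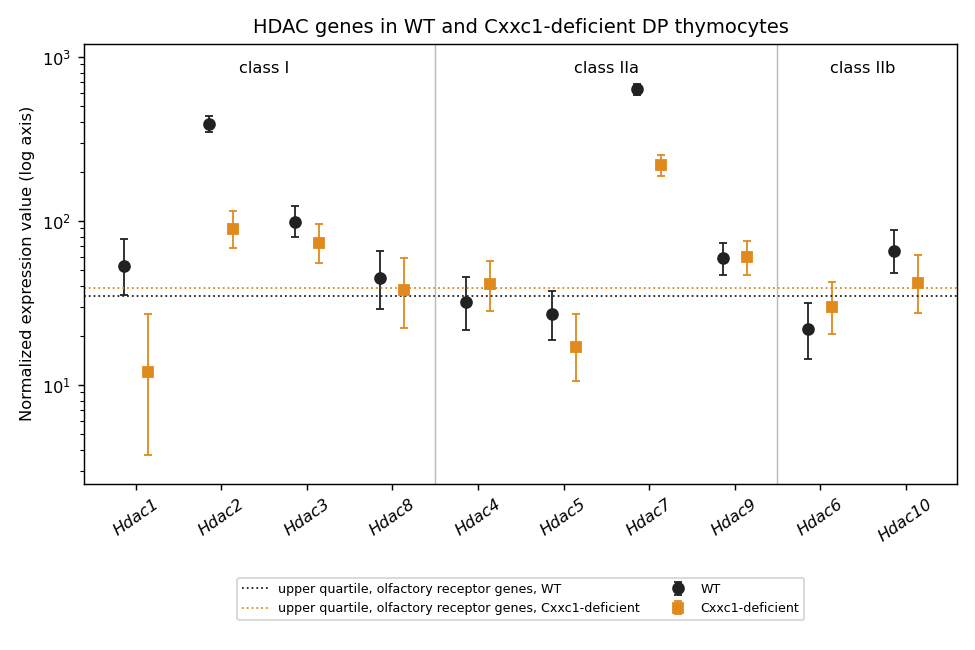
Normalized expression value (log axis) of each HDAC gene in the WT library (circles) and the Cxxc1-deficient library (squares), with approximate 95% Poisson intervals; dotted lines mark the upper quartile of 1102 olfactory receptor genes, 35 in WT and 39 in the deficient library. The circles of Hdac7 (634) and Hdac2 (389) stand far above the squares, the intervals of Hdac1 do not meet either, and those of the other 7 genes overlap.

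The order of the levels in WT was *Hdac7*, *Hdac2*, *Hdac3*, *Hdac10*, *Hdac9*, *Hdac1*, *Hdac8*, *Hdac4*, *Hdac5* and *Hdac6*. The intervals of *Hdac7*, *Hdac2* and *Hdac3* (99, from 79.8 to 123) did not overlap each other, whereas from *Hdac3* downwards each gene overlapped the next. In the deficient library the order was *Hdac7*, *Hdac2*, *Hdac3*, *Hdac9*, *Hdac10*, *Hdac4*, *Hdac8*, *Hdac6*, *Hdac5* and *Hdac1*, and only *Hdac7* was separated from the next gene by its interval. Olfactory receptor genes, which have no known role in thymocytes, give the level of genes not thought to be used by these cells: their median was 22 in WT and 24 in the deficient library, with highest values of 81 and 95. In WT, *Hdac7*, *Hdac2* and *Hdac3* exceeded all of the 1102 olfactory receptor genes, and in the deficient library this held for *Hdac7* alone. *Hdac4*, *Hdac5* and *Hdac6* were under the upper quartile of these genes in WT. In the deficient library *Hdac1* (12), *Hdac5* (17), *Hdac6* (30) and *Hdac8* (38) were under theirs, and 26.2% of the receptor genes were below *Hdac1*. These values do not stand apart from those of genes of this kind.

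Of the 10 HDAC genes, 3 were at least 2-fold lower in the deficient library and 0 were at least 2-fold higher, against 17.4% and 5.89% of the 20125 genes not at 0 in both libraries. The 3 were *Hdac1*, *Hdac2* and *Hdac7*, which also were the only members whose interval left out a ratio of 1. The study had listed these 3 for a change in the same libraries together with *Cxxc1* binding, so the count is not independent of that choice. The ratios of all genes varied with their level, and each member is therefore set beside all genes of its own band of mean value. At a mean of at least 100, where 56.8% of 2472 genes were at least 2-fold lower, both members (*Hdac2* and *Hdac7*) were. From 50 to under 100, where 20% of 3657 genes were, 0 of 3 members were (*Hdac3*, *Hdac9* and *Hdac10*). Under a mean of 50, where 9.75% of 13996 genes were, this held for 1 of 5 members (*Hdac1*). The band of *Hdac1* is uncertain, since most windows of its exons have a second place in the genome.

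In class I, *Hdac2* fell 4.37-fold (interval from 3.3 to 5.8), from 389 to 89, a log2 ratio of -2.13. The median of all genes in its band was -1.08, and 4.53% of them had a ratio at least as low. *Hdac1*, at 53 in WT and 12 in the deficient library, fell 4.42-fold, on approximately 27 and 5 reads, which leaves an interval from 1.77 to 15.5. Its value in the deficient library lay under the olfactory receptor median of 24, so the fold is uncertain, and with that median subtracted in each library the log2 ratio moved from -2.14 to -4.95, a value set by the floor of 1. *Hdac1* lies on chromosome 4 from 129193348 to 129219957 on the minus strand.

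The other class I genes did not pass 2-fold. *Hdac3*, the catalytic subunit of the NCoR and SMRT complexes, had 99 in WT and 73 in the deficient library. Its ratio was 0.737 (interval from 0.518 to 1.04), and its log2 ratio of -0.44 was near the median of its band, -0.53. *Hdac8*, which deacetylates cohesin, had 45 and 38, a ratio of 0.844 (0.429 to 1.59) on approximately 25 and 18 reads. Neither difference exceeded counting error at this depth, and the interval of *Hdac8* does not leave out a 2-fold fall.

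In class IIa, *Hdac7* fell 2.89-fold (interval from 2.47 to 3.42), from 634 to 219. Its log2 ratio of -1.53 lay below the median of its band, -1.08, with 20.8% of the genes in that band at least as low. *Hdac9*, a gene whose main product in muscle and brain lacks the deacetylase domain, had 59 in WT and 60 in the deficient library, a ratio of 1.02 (0.722 to 1.42). The ratio of *Hdac7*, 0.345, had an interval from 0.293 to 0.405, which does not meet that of *Hdac9*, so these class IIa genes differed by more than counting error. Their bands differ too, with a median of -1.08 for that of *Hdac7* and -0.53 for that of *Hdac9*. *Hdac4* had 32 and 41 and *Hdac5* 27 and 17, ratios of 1.28 (0.758 to 2.14) and 0.630 (0.353 to 1.14), both within counting error. In the annotation, 132 bases (3.35%) of the longest *Hdac4* transcript overlap exons of *Gm17418* on the opposite strand, and whether counting used the strand is not given in the sources used here.

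In class IIb, *Hdac6*, the cytoplasmic deacetylase of tubulin, had 22 in WT and 30 in the deficient library, a ratio of 1.36 (0.798 to 2.38). *Hdac10*, a deacetylase of polyamines, had 66 and 42, a ratio of 0.636 (0.381 to 1.06). The values of both genes differed by no more than counting error. *Hdac6* and *Hdac8* are the members on the X chromosome, from 7507246 to 7525015 and from 99479978 to 99700698, both on the minus strand. Of other members, *Hdac4* lies on chromosome 1 (93825362 to 94044970), *Hdac5* on chromosome 11 (102055746 to 102091480), *Hdac9* on chromosome 12 (34732451 to 35213754) and *Hdac10* on chromosome 15 (88953733 to 88959130), all on the minus strand.

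**Figure D2:**
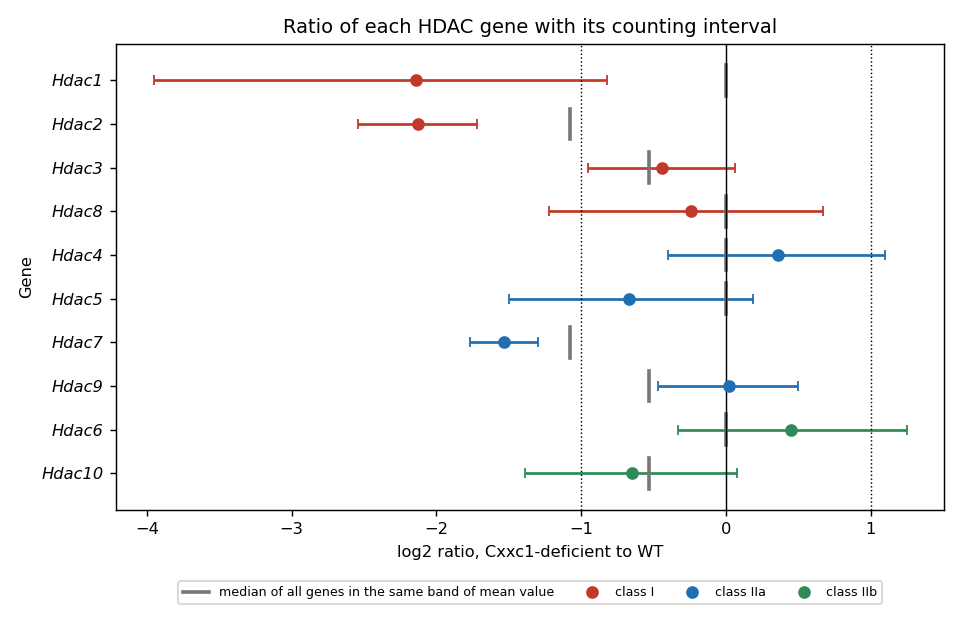
Log2 ratio of the Cxxc1-deficient to the WT value (x axis) for each HDAC gene, with its approximate 95% counting interval; grey ticks give the median of all genes in the same band of mean value and dotted lines a 2-fold change. Hdac1, Hdac2 and Hdac7 lie left of the line at -1, and the intervals of the other 7 genes cross 0.

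Class I had the lower median ratio of the classes, with *Hdac1* and *Hdac2* far below *Hdac3* and *Hdac8*. The summed values of class I were 586 in WT and 212 in the deficient library, a ratio of 0.362, and those of class II were 840 and 409, a ratio of 0.487. The median log2 ratio was -1.28 over the 4 class I genes, with a range from -2.14 to -0.24, and -0.31 over the 6 class II genes, with a range from -1.53 to 0.45, against -0.20 over all genes. All 4 class I genes and 3 of 6 class II genes had a lower value in the deficient library, against 59.9% of all genes, 95.2% of those with a mean of at least 100, 82.6% from 50 to under 100 and 47.8% under 50. The medians of the members' interval bounds were -1.88 and -0.38 for class I and -0.93 and 0.34 for class II. The class II median exceeded that of class I by 0.97 on the log2 scale. A rough range combined from the half-widths of those bounds, -0.01 to 1.95, includes 0 but is not a sampling interval of the medians. Without *Hdac1* the difference was 0.13, and without *Hdac2* it was also 0.13. Within each class the gene of highest value accounted for most of the WT sum, *Hdac2* for 66.4% of class I and *Hdac7* for 75.5% of class II, so a comparison of the sums is largely one of these genes. Class I contributed 41.1% of the sum of the 10 genes in WT and 34.1% in the deficient library.

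The directions of *Hdac1*, *Hdac2* and *Hdac7* were the same under each of 5 other scalings of the libraries, which raised the Cxxc1-deficient values by 0.04 to 1.00 on the log2 scale. Since a scaling adds the same amount to every log2 ratio, the smaller negative ratios of *Hdac3*, *Hdac5*, *Hdac8* and *Hdac10* and the class II median turned positive under the largest shift, so the direction of these depends on the scaling. The ratios of *Hdac1* and *Hdac2* remained at least 2-fold lower under each scaling, at -1.15 and -1.13 on the log2 scale at the largest shift. For *Hdac1* this is not secure, since its counting interval as deposited runs from -3.95 to -0.82 and so reaches above -1. A shift of 1.00 is larger than the distance of -0.82 from 0, so at that shift counting error leaves its direction unresolved. *Hdac7* was less than 2-fold lower there (-0.54). This also held with the same sum (-0.87) and with the same sum without the 100 highest genes (-0.97).

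**Figure D3:**
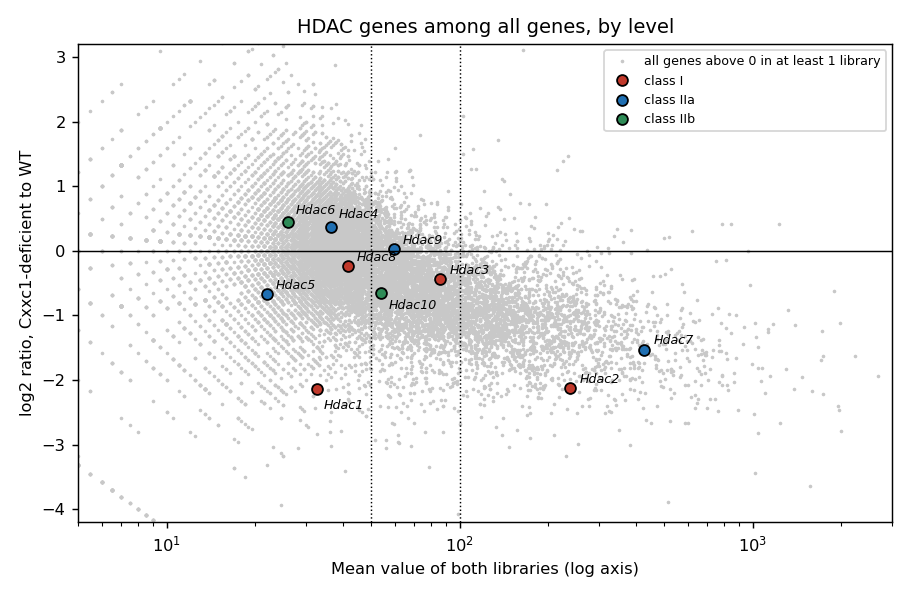
Mean value of both libraries (log axis, x) against the log2 ratio of Cxxc1-deficient to WT (y) for all genes (grey) and the HDAC genes (coloured by class); dotted lines bound the bands at 50 and 100, and 625 genes lie outside the axes. Hdac2 and Hdac7 lie below the lower quartile of their band (-1.46), Hdac2 the further. Hdac1 is far below most genes of its mean value, a level that is uncertain because of its copies.

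*Cxxc1* binds unmethylated CpG, and the paper found its signal raised at the centre of CpG islands in DP thymocytes. Only a small share of its sites lay in such islands, by the same paper. The CpG dinucleotides of the promoters are shown for a member that fell with the highest CpG count and for the leading class IIa gene. They are also shown for the member whose ratio was nearest to 1. RefSeq promoter windows of 300 bases (250 before and 50 after a start) were held for 7 of the 10 genes (*Hdac2*, *Hdac4*, *Hdac5*, *Hdac6*, *Hdac7*, *Hdac8* and *Hdac9*), with 11 starts in all. Each was matched without a mismatch to mm9, and CG is in capitals. The *Hdac2* window, at chr10:36694100-36694399 on the plus strand, holds 36 CpG, a number reached by 6.23% of 32851 promoters, whose median is 7.
Hdac2: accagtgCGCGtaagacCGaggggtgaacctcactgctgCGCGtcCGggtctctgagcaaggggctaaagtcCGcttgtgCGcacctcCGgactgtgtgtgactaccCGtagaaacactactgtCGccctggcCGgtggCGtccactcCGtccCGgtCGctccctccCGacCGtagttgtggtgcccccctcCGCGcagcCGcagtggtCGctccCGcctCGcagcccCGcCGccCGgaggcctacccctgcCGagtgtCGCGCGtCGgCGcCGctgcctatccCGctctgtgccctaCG
Of the 4 starts of *Hdac7*, the window with the most CpG, at chr15:97662149-97662448 on the minus strand, holds 35, which 6.95% of promoters reach.
Hdac7: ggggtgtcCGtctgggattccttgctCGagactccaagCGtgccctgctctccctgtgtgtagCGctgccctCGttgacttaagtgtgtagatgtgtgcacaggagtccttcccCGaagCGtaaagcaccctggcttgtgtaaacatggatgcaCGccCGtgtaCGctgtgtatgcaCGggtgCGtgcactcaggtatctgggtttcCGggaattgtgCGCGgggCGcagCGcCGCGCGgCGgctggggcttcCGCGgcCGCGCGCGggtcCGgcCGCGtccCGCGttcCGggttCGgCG
The *Hdac9* window at chr12:35213705-35214004 on the minus strand holds 3 CpG, which 76.7% of promoters reach.
Hdac9: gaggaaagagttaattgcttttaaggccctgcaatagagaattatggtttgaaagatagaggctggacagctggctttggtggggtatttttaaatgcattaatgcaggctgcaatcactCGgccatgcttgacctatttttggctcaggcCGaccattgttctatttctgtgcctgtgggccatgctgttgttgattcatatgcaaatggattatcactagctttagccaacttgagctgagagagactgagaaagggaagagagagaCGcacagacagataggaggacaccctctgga
Whether the number of CpG goes with the change was not tested, and *Hdac1*, *Hdac3* and *Hdac10* had no window. The *Hdac4* window has 32 CpG, and its gene had 32 in WT and 41 in the deficient library, within counting error. That window, at chr1:94076869-94077168, lies outside the span of *Hdac4* in the annotation used here. The windows of *Hdac6* and *Hdac5* hold 20 and 18 CpG and that of *Hdac8* holds 6. The other starts of *Hdac7* hold 31, 6 and 5 CpG and the other start of *Hdac9* holds 0. This *Hdac9* window, at chr12:35601718-35602017, also lies outside the span of its gene in the annotation used here. Which start was used in these cells was not measured.

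The proteins that work with these deacetylases were followed in 9 lists with 64 genes in the table. Of these, 54 were lower and 10 were higher in the deficient library, 24 (37.5%) were at least 2-fold lower and 1 was at least 2-fold higher, against 59.9% of all genes lower and 17.4% at least 2-fold lower. Since 28 of the 64 had a mean of at least 100, the nearer background is that band, in which 18 of the 28 (64.3%) were at least 2-fold lower against 56.8% of all genes of the band, with a median log2 ratio of -1.19 against -1.08. These shares are close, and nothing particular to the partners is read from them.

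All 15 genes of the SIN3 complex were lower, 9 of them at least 2-fold (17.4% of all genes), with a median log2 ratio of -1.20. For this and the next counts of lower genes, the share over all genes was 59.9%. It was 95.2% at a mean of at least 100, 82.6% from 50 to under 100 and 47.8% under 50. With a mean of at least 100, 56.8% of all genes were at least 2-fold lower. In that band this held for 4 of 5 SIN3 genes, 3 of 5 NuRD genes, 2 of 3 CoREST genes and 1 of 3 NCoR and SMRT genes. It also held for 1 of 1 MiDAC and MIER gene, 1 of 2 MEF2 factors, 3 of 3 14-3-3 genes and 3 of 6 kinases of class IIa proteins. *Sin3b*, a scaffold that binds HDAC1 and HDAC2, fell 4.4-fold, from 299 to 68 (interval from 3.3 to 5.88). The paralogous scaffold *Sin3a* fell 2.30-fold, from 232 to 101, and the DNA-binding subunits *Arid4a* and *Arid4b* fell 2.06-fold and 2.36-fold. In NuRD, 7 of 9 genes were lower (median log2 ratio -0.87) and 3 at least 2-fold: *Mbd2*, which binds methylated DNA, from 840 to 231, the remodeller *Chd4* from 493 to 170, and *Mta2*, which holds the deacetylases in the complex, from 229 to 107. All 7 CoREST genes were lower (median -0.97) and 3 at least 2-fold, among them the H3K4 demethylase *Kdm1a* (141 in WT and 62 in the deficient library). *Rcor1*, *Rcor2* and *Rcor3*, the scaffolds of that complex, were thus among the genes with lower values.

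Over all genes, 59.9% were lower and 17.4% at least 2-fold lower, the background for the counts that follow. Of 5 NCoR and SMRT genes, 4 were lower (median -0.82) and 1 at least 2-fold, *Tbl1xr1*, an exchange factor of the complex, from 339 to 115. Of the 5 genes of the MiDAC and MIER complexes all were lower (median -0.88) and 1 at least 2-fold, *Mier1*, an ELM2-SANT protein that binds HDAC1 and HDAC2, which fell 4.69-fold, from 1045 to 223 (interval from 4.07 to 5.43). Each list tied to class IIa proteins held both lower and higher genes, as did those of NuRD and of NCoR and SMRT. Of the 4 MEF2 factors, 2 were lower and 2 were higher (median -0.29), and *Mef2a* fell 2.88-fold, from 754 to 262. Of the 7 14-3-3 genes, 5 were lower (median -0.81) and 3 at least 2-fold, *Ywhae* from 2334 to 604, *Ywhaz* from 1147 to 391 and *Ywhab* from 628 to 268. Of the 9 kinases of class IIa proteins, 8 were lower (median -0.62) and 3 at least 2-fold: *Camk4*, from 929 to 369, *Prkd3*, from 213 to 84, and *Mark3*, from 178 to 88. Of the 3 NR4A receptors, 1 was lower and 2 were higher (median 0.11). *Nr4a1*, which encodes the orphan receptor Nur77, was the gene at least 2-fold higher, with 39 in WT and 82 in the deficient library, a ratio of 2.10 (interval from 1.23 to 3.58). Both of its values are within the range of the olfactory receptor genes.

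**Figure D4:**
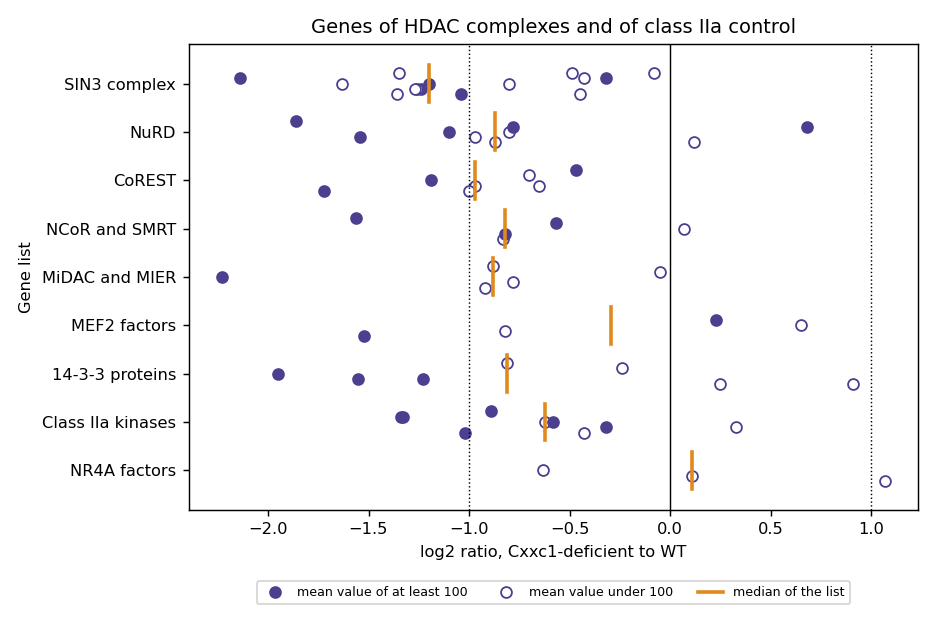
Log2 ratio of Cxxc1-deficient to WT (x axis) for each gene of 9 lists of HDAC partners; filled points have a mean value of at least 100, open points less, bars give the list's median and dotted lines a 2-fold change. The 15 SIN3 genes all lie left of 0, and Nr4a1 (1.07) is the point furthest right. Of all genes, 59.9% had a ratio under 0.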

How the data were processed

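RNA-seq of 2 libraries was used, grouped by their titles (WT and KO). The authors sequenced mRNA libraries as reads of 50 bases, mapped them to mm9, kept uniquely mapped reads and summarised them with Partek; the submitters' processing notes name CASAVA 1.8.2 and Bowtie 1.0.1. Each deposited value is treated as a score, which the authors had normalized and rounded to a whole number per gene; unit and annotation are not given in the sources used here.

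Ratios were taken between deposited values with a floor of 1, and the threshold was 2-fold, as in the study. The size of 1 read was found from genes of 60 to 350 bases with a single annotated length in GENCODE vM1 (NCBIM37, which is mm9): at 4.05 (WT) and 4.70 (Cxxc1-deficient), 19 of 50 and 17 of 50 values were whole reads of up to 6 within the rounding of 0.5. The rest were not, so reads are approximate. Reads used the longest transcript. Each class, list and member was described without a test. Windows were searched with blastn (BLAST+ 2.17.0, word size 16, identity of at least 90%). Scripts were tested on simulated data and ran in Python 3.11.15 with scipy 1.17.1, numpy 2.4.6, matplotlib 3.10.9 and pandas 2.3.3.

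ChIP-seq of the study was not analysed here. The members and lists were chosen with earlier results of these data known. All members are named, and of each list those at least 2-fold changed at a mean of at least 100, or else the gene of highest mean; 1 gene that this rule names is not reported here. Alternatives were 5 scalings, pseudocounts of 1 and 10, subtraction of the olfactory receptor median, a filter at a mean of 20 and thresholds of 1.5-fold and 3-fold.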

Additional observations from a re-analysis of the deposited data

How the results depend on the processing

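The class II median log2 ratio, -0.31 as deposited, reversed to 0.07 with the same 75th percentile in both libraries, to 0.35 with the same sum, to 0.25 with the same sum without the 100 highest genes and to 0.68 when genes of mean 100 or more were given the same median; under the last, the class I median moved from -1.28 to -0.29. These shifts follow from the factors applied. The count of HDAC genes at least 2-fold lower, 3 as deposited, was 5 after subtraction of the olfactory receptor median and 5 at a threshold of 1.5-fold, and was 2 or 3 in each other setting. The difference between the classes, 0.97, cannot move under a scaling and was 0.94 with a pseudocount of 1, 0.74 with a pseudocount of 10 and 0.94 after the subtraction. Further members were left out after seeing the data: without *Hdac1* or without *Hdac2* the class I median was -0.44 and the difference 0.13, and without *Hdac4*, *Hdac5* and *Hdac6* the class II median was -0.65 and the difference 0.63. Of 80 ratios of single genes under 8 settings, 59 stayed within their counting interval and 0 of the genes past 2-fold changed sign. The filter at a mean of 20 removed none of the members. The approximate reads, 5 for *Hdac1* in the Cxxc1-deficient library, limit the precision of the genes of low value. No paired analysis was possible because there is a single library of each genotype, and nothing was tested.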

Other observations

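The deacetylases outside classes I and II are given beside the shares of all genes. *Hdac11*, the gene of class IV, had 50 in WT and 43 in the deficient library, a ratio of 0.860 (interval from 0.477 to 1.47). Of the 7 sirtuins, the NAD-dependent deacetylases of class III, 4 were lower and 3 were higher, with a median log2 ratio of -0.04. Over all genes 59.9% were lower, so nothing particular to the sirtuins is read from this count. *Sirt7*, a nucleolar sirtuin, fell 2.27-fold, from 161 to 71 (interval from 1.64 to 3.25). Its log2 ratio of -1.18 was near the median of its band, -1.08, in which 56.8% of genes were at least 2-fold lower. *Sirt1*, which deacetylates histones and p53, had 133 and 75, and *Sirt2*, a mainly cytoplasmic sirtuin, had 198 and 159. The gene with the highest level among these sirtuins in both libraries, *Sirt2*, had a log2 ratio of -0.32, above the median of -1.08 of all genes of mean 100 or more.

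*Mef2d* and *Mta3* are named after their values were seen. *Mef2d*, a MEF2 factor that class IIa deacetylases bind, had 310 in WT and 363 in the deficient library, a ratio of 1.17 (interval from 1.02 to 1.34), while *Mef2a* of the same family fell 2.88-fold. *Mta3*, a NuRD subunit, had 104 and 167, a ratio of 1.61 (1.28 to 2.01), while its paralogue *Mta2* had 229 and 107. In the band of genes with a mean of at least 100, to which both belong, 95.2% were lower in the deficient library.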
